A study of Mus musculus with 12 samples.

Results

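Among 9 mouse mammary tumours of a Trp53 mutant cohort, the 3 that scored highest for 10 genes of luminal epithelium were compared with the 3 that scored lowest. The tumours were chosen by these measured values, so the score and its genes are a description. The score of a tumour was the mean log2 CPM (a gene's counts relative to all gene counts of its library, with library sizes scaled by factors from the trimmed mean of M values and a prior count of 2) of Krt8, Krt18, Krt19, Epcam, Cdh1, Cldn3, Cldn4, Esrp1, Elf3 and Prlr. Tumours 5, 27 and 1 had the highest scores and tumours 24, 21 and 20 the lowest, so that 6 of the 9 tumours and of the 12 libraries of the series entered the contrast. Values of 3 tumours are given below in these orders, 5, 27 and 1 for the highest and 24, 21 and 20 for the lowest.

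All 6 tumours shared 1 genotype, Trp53R245W/+, a missense change in 1 copy of the p53 gene that the series describes as somatic, and all came from females of 1 F1 hybrid strain, C57BL/6J X BALB/cJ. The 3 tumours between the ends of the ranking (17, 4 and 14) were of the same genotype, strain and sex. Wild-type (WT) epithelium enriched from mammary glands of the same strain and sex, in 3 libraries, gives the background. The labels give no age or treatment, do not name the promoter or cell type that drove the Trp53 change, and leave it unsaid if the tumours are from separate mice, so p-values measure the spread between these samples only.

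The mammary gland is built of an inner luminal layer, which makes keratins 8 and 18 and secretes milk, and an outer basal layer of contractile myoepithelial cells with keratins 5 and 14. The luminal layer holds hormone-sensing cells, which carry the estrogen and progesterone receptors and pass the hormone signal on through secreted factors such as amphiregulin, and secretory progenitors, which depend on transcription factors such as Elf5. Luminal cells are held together by tight junctions, adherens junctions and desmosomes, and loss of these contacts accompanies the change from an epithelial to a mesenchymal state.

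The 6 libraries held about 21936500 to 33600100 counts in genes, and 3 counts, the most that a count of 0 leaves possible, were 0.0928 to 0.119 CPM. Alignments outside genes made up 23.4 to 23.9% in the 3 highest-scoring tumours and 24.2 to 32.3% in the 3 lowest-scoring tumours, with no overlap. With this share as a covariate, the median log2 fold change of some gene lists moved by over 1.5 times, as given for several of them. Tumour 4 stood apart, since 52.0% of its alignments were not unique, Rn7sk (a small nuclear RNA) took 22.6% of its counts and mitochondrial genes 11.2%. It ranked in the middle and is outside the contrast, but it entered the filter, the scaling and the estimate of spread.

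The score ran from 8.55 in tumour 5, 8.51 in tumour 27 and 8.01 in tumour 1, through 7.70, 7.63 and 7.54 in tumours 17, 4 and 14, to 6.84 in tumour 24, 6.77 in tumour 21 and 5.94 in tumour 20. The gap at the upper edge, between tumours 1 and 17, was 0.31, and the gap at the lower edge, between tumours 14 and 24, was 0.70. The wild-type epithelium scored 7.48, 7.44 and 7.67, of which the last lay among the middle tumours and the others just under them, so that the 3 highest-scoring tumours lay above these libraries and the 3 lowest below them. The epithelium libraries also held RNA of other cells, with 2264 to 2854 CPM summed over B and plasma cell genes. Of their alignments 39.9 to 41.5% lay outside genes, more than in any tumour. Their titles carry another prefix than those of the tumours, which cannot be told apart from tissue. The part of these differences in the epithelium levels was not tested. The tumour scores chose the tumours and are a description with no test.

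**Figure D1:**
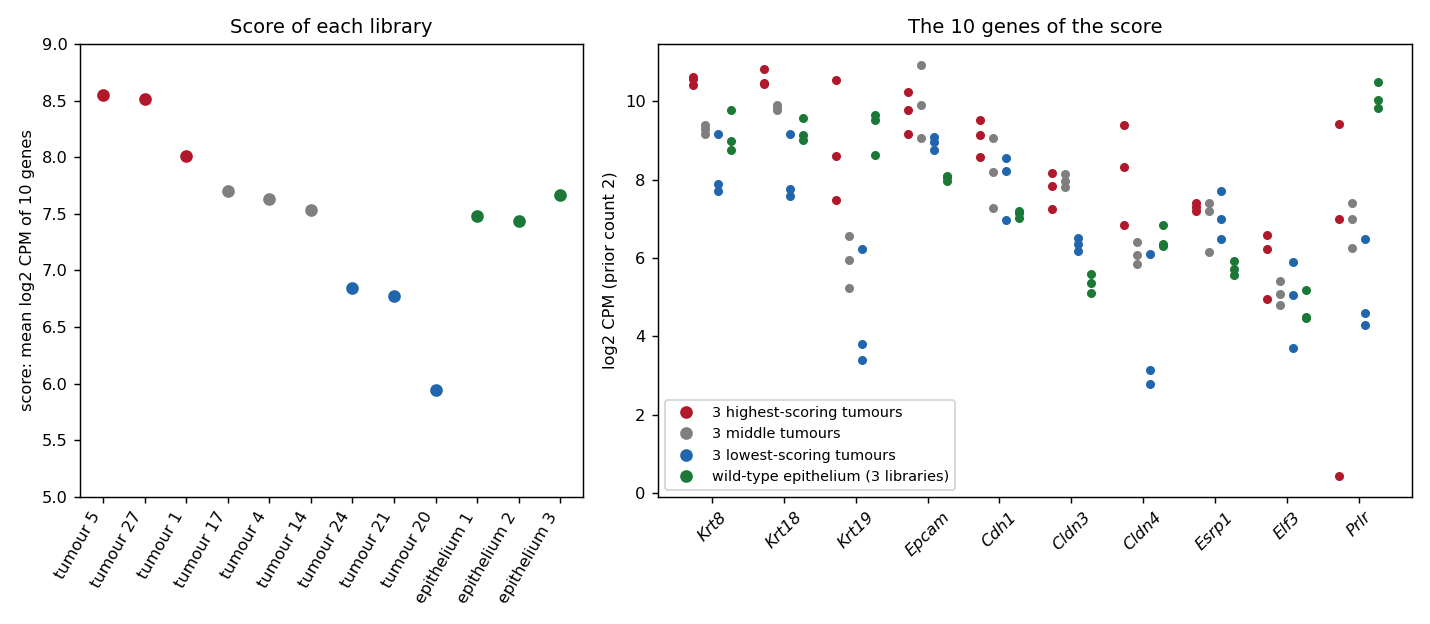
Left, the score (mean log2 CPM of 10 genes) of each library, with tumours in the order of the ranking and then the 3 epithelium libraries. Right, log2 CPM (prior count 2) of each gene of the score, 1 point per library. The scores run from 8.55 to 5.94, and Prlr is near the floor in tumour 1, 1 of the 3 highest-scoring tumours.

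Of the 10 genes, Krt8, Krt18, Krt19, Epcam, Cdh1, Cldn3 and Cldn4 did not overlap between the 3 and 3 tumours. Krt8, the luminal partner keratin of Krt18, had 1535, 1579 and 1359 CPM in the highest-scoring tumours and 576, 208 and 238 CPM in the lowest. Krt18 had 1402, 1418 and 1833 against 572, 192 and 217 CPM. Both keratins were thus several times more abundant at the upper end. Epcam, an adhesion molecule of epithelial cells, had 877, 577 and 1217 against 499, 542 and 434 CPM, and Cdh1, the cadherin of adherens junctions, 560.4, 383 and 735 against 301, 374 and 126 CPM. Epcam and Cdh1 were nearest between tumours 27 and 21. Krt8, Krt18, Epcam and Cdh1 were at 126 CPM or more in the lowest-scoring tumours, far above the CPM of 3 counts, so the label of least luminal is one of degree. Krt19 and Cldn4 lay further apart by their means. Krt19 had 390, 1490 and 180 against 13.9, 74.9 and 10.5 CPM. Cldn4 had 321, 114 and 672 against 6.79, 68.2 and 8.68 CPM.

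Esrp1 (a splicing factor of epithelial cells), Elf3 (an epithelial transcription factor) and Prlr (the prolactin receptor) overlapped between the ends. Prlr had 1.27 CPM in tumour 1, the lowest value of all 9 tumours, against 129 and 682 CPM in tumours 5 and 27, and 1042, 916 and 1435 CPM in epithelium. Esrp1 was at 147, 158 and 168 against 211, 90.1 and 128 CPM. The ends thus differed most in keratins and claudins, above all in Krt19 and Cldn4, and less in Epcam and Cdh1. The tumours are called highest-scoring and lowest-scoring below. This is because other luminal genes, described with the lineages, were near 0 in tumour 1 and basal genes were high in tumour 27. The 10 genes are left out of all that follows.

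Over the 20004 other genes tested, edgeR's quasi-likelihood test called no gene at a Benjamini-Hochberg adjusted p under 0.05 (0%), and the smallest adjusted p was 0.7499. At an unadjusted p under 0.05, 610 genes were higher in the highest-scoring tumours (3.05%) and 667 were lower (3.33%). DESeq2 on the same counts called 95 genes higher and 113 lower, and limma-voom called none. Tumours of the same level differed widely, with a common biological coefficient of variation of 0.633 estimated from all 9 tumours in 3 levels, the middle ones included. Over all genes the log2 fold change had a median of -0.04.

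Counted by values, 890 genes (4.45%) were higher in each of the 3 highest-scoring tumours than in any of the 3 lowest, and 1021 genes (5.1%) were lower. These 2 shares are the background for the counts of gene groups. Under upper quartile scaling, which moved that median to -0.16, the counts were 572 and 1404. At least 2-fold differences made up 367 of the 890 and 642 of the 1021. The 3 middle tumours, which this count did not use, had a mean between those of the 2 ends in 462 of the 890 (51.9%) and 569 of the 1021 (55.7%). Tumour 1 was the highest of its 3 in 385 of the 890 genes (43.3%), tumour 5 in 261 and tumour 27 in 244.

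The 8 genes named on the higher side had the smallest p among genes already without overlap, at 10 CPM or more and with an accepted symbol. Their separation of the ends thus follows from the rule, and none was called. They encode a growth factor, a keratin, a claudin, a glycan-branching enzyme, surface proteins and enzymes or carriers of lipids. Areg (chromosome 5, 91139599 to 91148432, GRCm38) encodes amphiregulin, the ligand of the EGF receptor through which estrogen drives duct growth in the gland. It had 20.2, 65.4 and 22.4 CPM in the highest-scoring tumours and 0.363, 1.55 and 1.93 CPM in the lowest, with 3.71, 2.84 and 0.835 CPM in the middle tumours and 460.4, 75.98 and 368 CPM in epithelium. The lowest of the 3 upper values was over 10 times the highest of the 3 lower ones, and no tumour reached the epithelium. The log2 fold change was 4.81 (SE 0.89, edgeR adjusted p = 0.7499; DESeq2 adjusted p = 5.86e-06).

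Krt7 (chromosome 15, 101411043 to 101430313), the keratin of simple and glandular epithelia, had 1050.4, 247 and 1163 CPM at the upper and 59.4, 98.1 and 35.6 CPM at the lower end (log2 fold change 3.67, SE 0.69, edgeR adjusted p = 0.7499). Its middle tumours had 114, 268 and 176 CPM and epithelium 77.1, 73.01 and 158 CPM, so that tumours 5 and 1 stood above every other library. Cldn7 (chromosome 11, 69964779 to 69967885), a claudin of epithelial tight and lateral contacts, had 74.6, 53.5 and 93.4 against 27.5, 21.3 and 15.6 CPM, a log2 fold change of 1.78 (SE 0.39), with 37.5, 59.2 and 54.95 CPM in the middle tumours. Of the middle tumours, 4 and 14 were above tumour 27 and tumour 17 lay between the ends. Gcnt2 (chromosome 13, 40859754 to 40960892), which branches the glycans of the I blood group, had 107, 54.9 and 114 against 8.86, 26.8 and 12.9 CPM (log2 fold change 2.504, SE 0.52), and all 3 middle tumours (13.2, 21.9 and 13.05 CPM) were in the range of the lowest-scoring.

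Lypd3 (chromosome 7, 24636550 to 24641118), a surface protein of the Ly6 family anchored to the membrane by a lipid, had 42.7, 16.1 and 38.3 against 1.89, 6.98 and 1.76 CPM (log2 fold change 3.19, SE 0.70). Msln (chromosome 17, 25748613 to 25754378), which encodes mesothelin, a surface protein of mesothelium and of some carcinomas, had 12.3, 26.6 and 757 against 0.3996, 2.18 and 0.703 CPM and 0.0691, 0.173 and 0.0337 CPM in epithelium. Tumour 1 carried most of this difference, and its log2 fold change of 7.92 (SE 1.72) was 4.15 without that tumour. Acsbg1 (chromosome 9, 54604877 to 54661870), an acyl-CoA synthetase, had 15.4, 44.2 and 333 against 0.618, 4.404 and 2.35 CPM (5.73, SE 1.21, and 3.59 without tumour 1). Pitpnm3 (chromosome 11, 72047528 to 72135778), of a family of phosphatidylinositol transfer proteins, had 5.76, 33.7 and 76.3 against 0.763, 2.82 and 2.6005 CPM (4.22, SE 0.94). For these 3 genes tumour 1 was the highest of all 9 tumours.

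**Figure D2:**
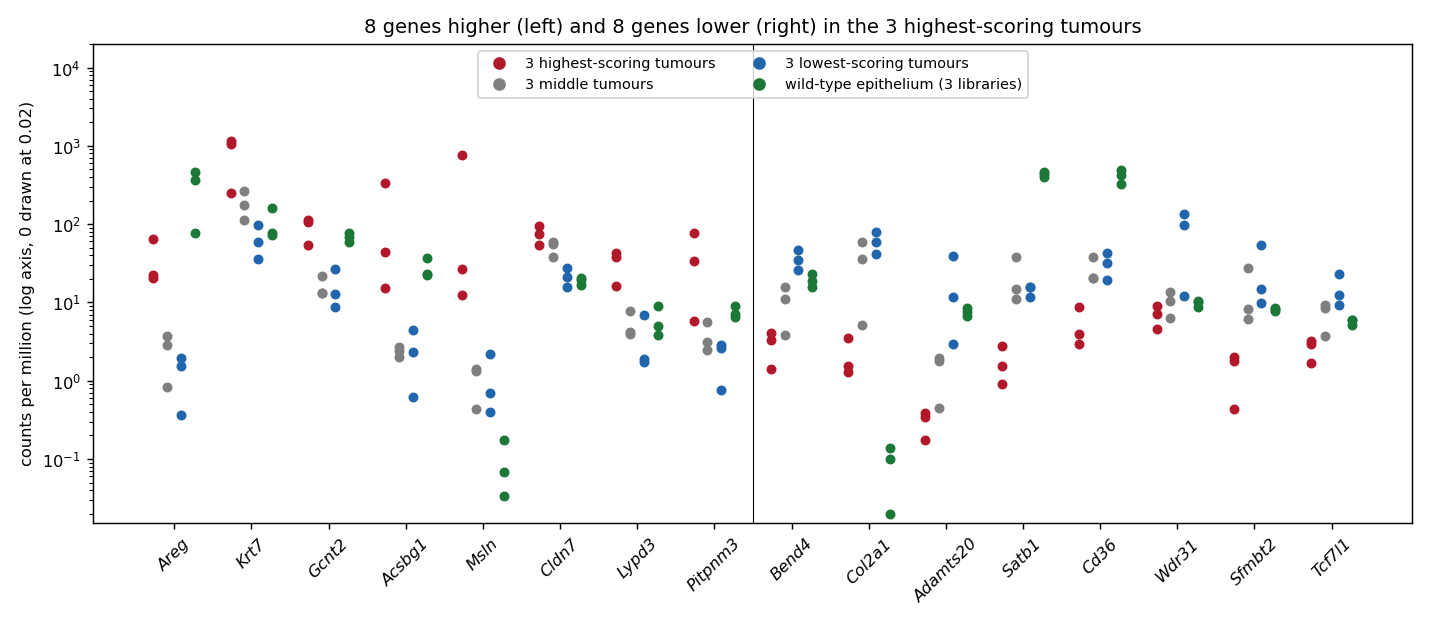
CPM on a log axis of 8 genes higher (left) and 8 lower (right) in the 3 highest-scoring tumours, 1 point per library, with a value of 0 drawn at 0.02. They had the smallest p among genes without overlap, at 10 CPM or more and with an accepted symbol. The red points (3 highest-scoring) and the blue points (3 lowest-scoring) do not overlap in any of the 16 genes by the rule that chose them, while the grey middle tumours lie on either side.

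On the lower side, Satb1, Sfmbt2 and Tcf7l1 encode regulators of chromatin or transcription, and Col2a1 and Adamts20 proteins of the matrix. Col2a1 (chromosome 15, 97975602 to 98004695), the main collagen of cartilage, had 1.56, 1.29 and 3.53 CPM in the highest-scoring tumours and 58.4, 79.3 and 41.8 CPM in the lowest (log2 fold change -4.81, SE 0.88, edgeR adjusted p = 0.7499; DESeq2 adjusted p = 1.28e-05). The middle tumours had 36.001, 59.7 and 5.13 CPM and the epithelium 0, 0.138 and 0.101 CPM, so that every lower-end tumour and tumours 17 and 4 were far above normal epithelium. Adamts20 (chromosome 15, 94270163 to 94465418), a secreted metalloprotease, had 0.391, 0.174 and 0.3404 against 2.98, 11.8 and 39.7 CPM (-5.89, SE 1.08). Its upper values, all under 1 CPM, lay little above the CPM of 3 counts.

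Bend4 (chromosome 5, 67392147 to 67428310), a BEN domain protein, had 4.04, 1.43 and 3.34 against 35.1, 25.99 and 46.8 CPM (-3.61, SE 0.65). Satb1 (chromosome 17, 51736187 to 51833290), a chromatin organiser best known in T cells, had 1.56, 2.78 and 0.897 against 15.8, 11.6 and 15.7 CPM (-3.04, SE 0.64), with 38.2, 14.8 and 11.04 CPM in the middle tumours and 399.8, 458 and 433 CPM in epithelium. The epithelium libraries also held 997 to 1107 CPM summed over T and NK cell genes, against 7.58 to 51.5 in the highest-scoring and 9.92 to 64.4 in the lowest-scoring tumours, and the part of lymphocytes in Satb1 was not tested. Sfmbt2 (chromosome 2, 10370510 to 10595253), a Polycomb group protein, had 2.02, 1.81 and 0.433 against 53.99, 14.9 and 9.77 CPM (-4.20, SE 0.96). Tcf7l1 (chromosome 6, 72626378 to 72789254), a repressor of the TCF family in Wnt signalling, had 2.96, 3.23 and 1.67 against 23.3, 12.6 and 9.31 CPM (-2.52, SE 0.59).

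Cd36 (chromosome 5, 17781690 to 17888801), a fatty acid transporter of adipocytes, capillaries and macrophages, had 8.85, 3.997 and 2.97 against 31.9, 19.4 and 42.9 CPM (-2.57, SE 0.56), with 490.3, 426 and 323 CPM in epithelium. Wdr31 (chromosome 4, 62448653 to 62470896), a WD repeat protein, had 7.19, 9.11 and 4.64 against 137, 12.1 and 98.2 CPM (-3.56, SE 0.79). In Wdr31 tumours 24 and 20 stood above all other libraries, while tumour 21 was near the middle tumours (13.7, 6.38 and 10.3 CPM).

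Transcripts of epithelial junction proteins were higher by their mean in each of the highest-scoring tumours. Of 25 junction genes outside the score, 23 had a positive log2 fold change, with a median of 1.02 against -0.04 over all genes, and 7 were higher without overlap and 0 lower, 28% of the list against 4.45% of all genes tested. The other 18 overlapped. With 4 tumours against 4 the count was 1, against 236 of all 20004 genes tested. Their mean log2 CPM was 5.83, 5.86 and 5.93 in the highest-scoring tumours and 4.58, 4.70 and 4.90 in the lowest, 2 ranges that did not overlap, but middle tumour 4 (4.56) was below both. These genes belong to the same contacts as Cdh1, Epcam, Cldn3 and Cldn4 of the score, so the list is not independent of the ranking. In bulk tissue, fewer epithelial cells and less RNA per cell cannot be told apart.

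Besides Cldn7, the tight junction and polarity genes without overlap were Ocln and Crb3. Ocln, the transmembrane protein occludin, had 28.1, 34.2 and 87.4 CPM against 8.501, 16.7 and 24.5 CPM (log2 fold change 1.59, SE 0.55), and Crb3, a polarity protein of the apical membrane, 16.5, 15.3 and 53.4 against 8.68, 8.85 and 4.99 CPM (1.92, SE 0.77). Among desmosome genes, the armadillo proteins Jup (357, 209 and 519 against 204, 167 and 115 CPM), Pkp1 (224, 77.9 and 177 against 2.14, 52.8 and 42.03 CPM) and Pkp2 (29.7, 41.6 and 62.02 against 15.5, 17.1 and 22.5 CPM) did not overlap. Jup was nearly equal in tumours 27 and 24. Dsp, the desmosomal plaque protein, overlapped (279.5, 655 and 715 against 74.5, 147 and 726 CPM), and Cdh3, the cadherin of basal cells, was highest in tumour 20 (113 CPM against 1.59, 22.2 and 5.94 CPM in the highest-scoring tumours).

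The promoters of the junction genes without overlap are shown because these genes were higher together and because E-boxes with the letters CACCTG, or CAGGTG on the other strand, are the sites that repressors of the Zeb and Snail families bind in genes such as Cdh1. RefSeq promoters (GRCm38.p6, 250 bases before to 50 after the start, 300 in all) were on hand for 4 of the 7, Cldn7, Ocln, Crb3 and Jup. They are printed 5′ to 3′ on the gene's strand in lower case, with each E-box in capitals.
Crb3 (chr17:57061951-57062250, plus strand): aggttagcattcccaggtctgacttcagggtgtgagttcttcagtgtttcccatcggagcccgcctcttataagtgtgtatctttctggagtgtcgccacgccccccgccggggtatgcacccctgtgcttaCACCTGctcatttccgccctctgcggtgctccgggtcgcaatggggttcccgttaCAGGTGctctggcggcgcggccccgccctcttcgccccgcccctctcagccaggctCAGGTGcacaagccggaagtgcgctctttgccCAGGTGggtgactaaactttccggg
Ocln (chr13:100552669-100552968, minus strand): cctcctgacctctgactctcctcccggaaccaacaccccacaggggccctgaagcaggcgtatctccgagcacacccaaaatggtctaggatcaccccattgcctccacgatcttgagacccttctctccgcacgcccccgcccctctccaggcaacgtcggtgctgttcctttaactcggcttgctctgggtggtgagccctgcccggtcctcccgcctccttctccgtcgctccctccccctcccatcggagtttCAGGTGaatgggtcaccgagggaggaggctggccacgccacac
Cldn7 (chr11:69964529-69964828, plus strand): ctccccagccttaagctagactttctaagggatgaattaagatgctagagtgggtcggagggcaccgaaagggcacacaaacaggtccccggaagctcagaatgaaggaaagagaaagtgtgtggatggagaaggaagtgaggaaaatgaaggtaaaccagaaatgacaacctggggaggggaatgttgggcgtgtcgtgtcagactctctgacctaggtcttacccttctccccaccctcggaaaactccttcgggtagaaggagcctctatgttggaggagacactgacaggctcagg
Jup (chr11:100397741-100398040, minus strand): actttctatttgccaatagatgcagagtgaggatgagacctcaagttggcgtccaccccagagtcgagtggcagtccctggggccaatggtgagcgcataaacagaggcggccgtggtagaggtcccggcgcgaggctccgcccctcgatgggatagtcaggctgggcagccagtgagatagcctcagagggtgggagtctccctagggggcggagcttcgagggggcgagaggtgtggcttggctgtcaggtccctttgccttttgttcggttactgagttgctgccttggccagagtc
Crb3 held 4 such E-boxes and Ocln 1, the latter 8 bases after the start, while Cldn7 and Jup held none in this window. Crb3, Ocln and Cldn7 each had 2 RefSeq starts, of which the one nearest the gene's start in GENCODE M21 is shown. For Crb3 the window shown lies inside the gene (57059105 to 57065918). The E-box counts hold for these starts only. The promoter of Krt7 held 1. At least 1 stood in 20.2% of all 32851 RefSeq promoters on hand, and a match is a description of letters only.

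The genes of the repressors overlapped between the ends. Of 18 tested regulators of the epithelial to mesenchymal transition 9 had a positive and 9 a negative log2 fold change (median -0.02, 0.43 without tumour 21). The 1 gene without overlap, 5.56% of the list against 4.45% of all genes, was Foxc2, at 0.423, 1.15 and 0.712 against 0.363, 0.278 and 0.281 CPM. Zeb1 had 21.4, 33.1 and 27.4 CPM in the highest-scoring and 13.99, 92.9 and 36.2 CPM in the lowest-scoring tumours, and Zeb2 79.4, 45.01 and 97.05 against 59.4, 269.9 and 66.8 CPM. In both, tumour 21 was the highest of the 9 tumours and tumour 24 was below or among the highest-scoring. Epithelium had more Zeb1 than any tumour (138, 122 and 132 CPM) and more Zeb2 than any but tumour 21 (193, 164 and 211 CPM). The part of other cells of the epithelium libraries in these values was not tested. Snai1 had 10.97, 1.39 and 12.8 against 12.5, 11.5 and 3.06 CPM, Snai2 1.14, 21.1 and 2.85 against 1.13, 6.904 and 18.5 CPM and Twist1 19.4, 1.599 and 3.31 against 2.47, 12.97 and 10.3 CPM, all overlapping. Of 25 genes of mesenchymal state 10 were positive and 15 negative. Their median was -0.19, but 0.94 without tumour 21, 0.27 with that covariate and 0.24 under limma-voom. Sox4, a factor of the SOX family, and Tcf12, a helix-loop-helix factor, the 2 most abundant regulators, had 319, 185 and 329.6 against 182, 135 and 235 CPM and 210.4, 178 and 110.3 against 170.4, 157 and 159 CPM. Fn1, the matrix glycoprotein fibronectin, had 1141, 266 and 4189 against 688, 12367 and 441 CPM and was highest in tumour 21. Vim, the mesenchymal filament protein, had 307, 450.5 and 359 against 229, 1045 and 272 CPM. Spp1, the secreted glycoprotein osteopontin, was in this list but higher at the upper end (3440.3, 335 and 1929 against 231, 331 and 69.9 CPM, log2 fold change 3.17, SE 0.96), as was Itgav, an integrin chain that binds it (235, 287 and 289 against 103, 227 and 145 CPM). These 2, both without overlap, were 8.0% of the list, against 4.45% of all genes. Cd44, another receptor of osteopontin, had 1280.4, 348 and 1843 against 52.2, 414 and 74.7 CPM and overlapped through tumours 27 and 21.

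Epithelial regulators and lineage genes differed widely among the 3 highest-scoring tumours. Of 23 tested regulators of epithelial fate, 2 were higher without overlap (8.70% of the list, against 4.45% of all genes). They were the protease inhibitor Spint1 (227, 82.4 and 132 against 52.9, 73.9 and 57.8 CPM) and the channel-like membrane protein Tmc4 (160.2, 129 and 137 against 84.03, 60.6 and 30.7 CPM). Ehf, an epithelial Ets factor, had 1077 and 951 CPM in tumours 5 and 27 but 3.84 CPM in tumour 1, and 751, 475 and 122 CPM in the lowest-scoring tumours. Elf5, the Ets factor of secretory progenitors, had 156, 64.3 and 1.702 against 236, 74.7 and 38.3 CPM, and Tfap2c, an AP-2 factor of the mammary luminal lineage, 60.3, 77.7 and 0.928 against 123, 69.6 and 117 CPM. Tumour 1 was thus the lowest of the 9 tumours in all 3 genes, far below the next in each. St14, the membrane protease matriptase and the most abundant regulator besides Ehf, was low in tumour 27 instead (364, 131 and 367 against 274, 188 and 127 CPM).

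Genes of luminal progenitors and milk were low in tumour 1 as well. It was the lowest of 9 tumours in 15 of 24 such genes (62.5%), against 16.2% of all genes tested, and its mean log2 CPM for the list was 1.67, against 5.65 in tumour 5, 4.85 in tumour 27 and 4.66, 3.92 and 3.27 in the lowest-scoring tumours. Csn3, the milk protein kappa casein, had 1283, 1159 and 1.702 against 374, 32.1 and 197 CPM, and Wfdc18, a secreted protein of the milk-producing gland, 1015, 779.8 and 2.04 against 582, 249.8 and 143 CPM. Lcn2, the iron-binding lipocalin 2, and Mfge8, a milk fat globule protein, the most abundant of the list, had 3077, 1568 and 174 against 1772, 464 and 798 CPM and 1711, 1446 and 168 against 954, 701 and 324 CPM. Kit, the receptor of luminal progenitors, had 65.5, 249.96 and 17.02 against 118, 393 and 83.6 CPM and was lowest in tumour 1. Over the list, 17 genes were positive and 7 negative (median 1.00, 0.26 without tumour 5, 1.91 with the 2 highest against the 2 lowest). The 2 genes higher without overlap, 8.33% of the list against 4.45% of all genes, were Btn1a1, the milk fat globule protein butyrophilin (14.5, 22.7 and 23.7 against 1.38, 2.4996 and 1.37 CPM), and Aldh1a3, a retinal dehydrogenase of luminal progenitors (55.7, 45.2 and 34.6 against 1.67, 21.3 and 10.2 CPM). Lalba, the milk protein alpha-lactalbumin, was lower without overlap (2.34, 1.46 and 0.217 against 48.5, 5.67 and 22.5 CPM, 4.17% of the list against 5.1% of all genes), but middle tumour 17 had 652 CPM.

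Hormone-sensing genes were high in 1 of the 3 highest-scoring tumours. Pgr, the progesterone receptor, had 0.781, 43.1 and 0 CPM at the upper end and 0.291, 0.436 and 1.76 CPM at the lower, against 202, 43.9 and 220.2 CPM in epithelium. Foxa1, the pioneer factor of estrogen receptor binding, had 0.456, 44.8 and 2.88 against 0.0727, 1.31 and 1.62 CPM, and Cited1, a coactivator of the estrogen response, 0.423, 109 and 0.0928 against 0.0363, 0.119 and 1.12 CPM. Among the 6 tumours only tumour 27 came near the epithelium in these 3 genes (24.9, 23.8 and 21.1 CPM of Foxa1 and 49.8, 84.5 and 16.97 CPM of Cited1 there), and it was the highest of 9 tumours in 11 of 21 genes of the list (52.4%, against 9.70% of all genes). The list's median log2 fold change of 1.14 was 0.15 without tumour 27. Of its members 2 were higher without overlap (9.52%, against 4.45% of all genes), Areg and Prom1, the surface protein prominin (91.5, 21.2 and 141 against 17.8, 17.3 and 12.6 CPM). Esr1, the estrogen receptor, had 7.75, 36.8 and 16.99 against 2.58, 14.01 and 2.28 CPM, and Gata3, the luminal master regulator, 37.9, 54.96 and 25.7 against 39.7, 14.4 and 3.58 CPM, and both overlapped. The most abundant members were Xbp1, a factor of the secretory pathway (382, 342 and 115 against 314, 230.3 and 56.4 CPM), and Ly6a, the surface protein Sca-1 (129, 116 and 23.6 against 5.99, 90.7 and 6.68 CPM), and both overlapped. Areg was thus higher in all 3 highest-scoring tumours, while Pgr was high in 1 of them.

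Basal and myoepithelial genes were high in the same tumour. Tumour 27 was the highest of 9 tumours in 10 of 23 basal genes (43.5%). Krt5 had 0.488, 875 and 0.155 CPM at the upper and 0.581, 40.9 and 213 CPM at the lower end, Krt15, a keratin of basal cells, 0.391, 1017 and 0.0928 against 0.509, 1.35 and 6.85 CPM, and Trp63, the p53 relative that specifies basal epithelium, 1.92, 227 and 1.92 against 2.22, 3.37 and 302 CPM. Tumour 27 at the upper end and tumour 20 at the lower end thus both carried basal markers. The contractile genes Acta2 (69.98, 951 and 86.5 against 106, 117 and 951 CPM) and Myh11 (10.9, 1039.9 and 6.41 against 13.4, 18.6 and 136 CPM) were high in the same 2 tumours. The most abundant members overlapped, with Dst, a cytoskeletal linker, at 479, 829 and 1088 against 1201, 1099 and 629 CPM and Itga6, a laminin receptor chain, at 412, 692 and 694 against 748, 278 and 886 CPM. The list's median was 0.85, with 18 members positive and 5 negative, but -1.47 without tumour 27 and 2.31 without tumour 20. Smooth muscle and pericyte genes, which share the contractile programme, had their highest mean log2 CPM in the same 2 tumours (5.27 in tumour 27 and 4.98 in tumour 20, against 4.27 and 4.09 in tumours 5 and 1), and their part in Acta2 and Myh11 was not tested. Of 13 such genes 1, the channel Kcnj8, was higher without overlap (40.5, 25.97 and 23.98 against 11.01, 11.7 and 23.02 CPM, 7.69% against 4.45% of all genes). The most abundant were Rgs5 (112, 334 and 109.5 against 69.8, 130.1 and 187 CPM) and Mcam (107, 172 and 112 against 64.2, 81.02 and 142 CPM), both of pericytes. Squamous genes, 16 tested, were 8 positive and 8 negative, and their median of 0.22 had no stable sign (2.79 without tumour 21, 1.60 without tumour 20, -0.91 without tumour 27, -0.37 without tumour 24 and 2.44 with the outside-gene share as a covariate). Dsg3, a desmosomal cadherin of stratified epithelium, was higher without overlap (70.1, 14.5 and 11.6 against 0.327, 10.9 and 3.16 CPM), narrowly above tumour 21, as was the protease gene Klk10 (2.73, 0.973 and 3.28 against 0.0727, 0.635 and 0.527 CPM). These 2 are 12.5% of the list, against 4.45% of all genes. Dsc3, its other abundant desmosomal cadherin, was high in tumour 27 alone (0.1302, 143 and 0 against 0.0363, 9.88 and 3.23 CPM).

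Of the basement membrane genes of the basal list, the laminin chains Lama3 (93.8, 608 and 1072 against 4.54, 69.4 and 216 CPM) and Lamb3 (214, 314 and 634 against 57.8, 36.8 and 287 CPM) and the hemidesmosome integrin Itgb4 (546, 125 and 731 against 28.6, 210.3 and 88.6 CPM) overlapped. In Lama3 and Lamb3 the 1 tumour of the lower end that reached the upper was tumour 20, and in Itgb4 it was tumour 21. Cxcl14, a chemokine, was higher without overlap (77.1, 57.8 and 51.3 against 28.6, 40.5 and 34.5 CPM), 1 of 2 such genes among 23 (8.70% of the list, against 4.45% of all genes).

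**Figure D3:**
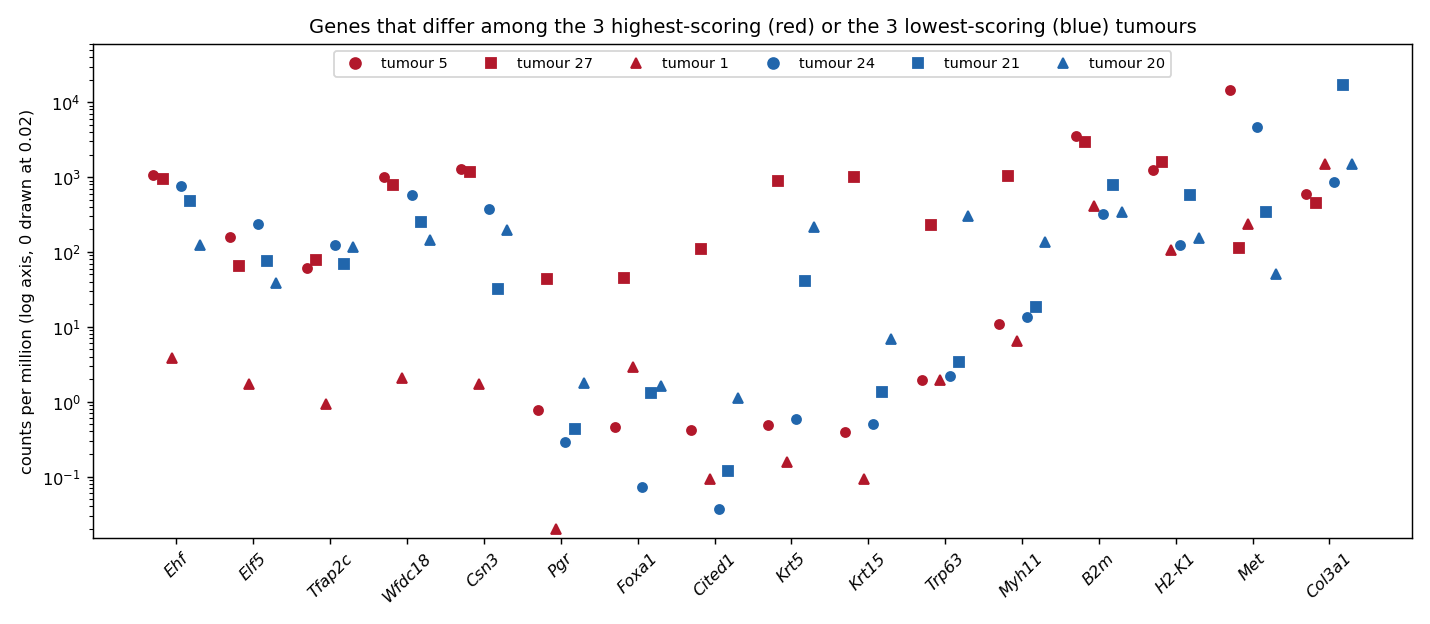
CPM on a log axis of 16 genes in the 3 highest-scoring tumours (red) and the 3 lowest-scoring tumours (blue), with a value of 0 drawn at 0.02. Tumour 1 (red triangle) is lowest for Ehf, Elf5, Tfap2c, Wfdc18 and Csn3, tumour 27 (red square) is highest for Pgr, Foxa1, Cited1, Krt5, Krt15 and Myh11, and tumour 21 (blue square) is highest for Col3a1. The genes were chosen after their values were seen.

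Many endothelial genes were higher in the 3 highest-scoring tumours, in a count that depended on the scaling. Of 22 endothelial genes, 10 were higher without overlap (45.5%, against 4.45% of all genes tested) and 1 was lower, Lyve1, and the median log2 fold change was 0.62. Under upper quartile scaling 3 of the 22 were higher without overlap (median 0.48), against 572 of all 20004 genes tested. With 4 tumours against 4 the count was also 3, against 236 of all 20004. Flt1, the VEGF receptor 1, had 140.3, 86.1 and 75.9 against 33.7, 42.3 and 49.3 CPM (log2 fold change 1.27, SE 0.47), and Vwf, von Willebrand factor, 104, 247 and 61.5 against 13.9, 49.8 and 15.95 CPM (2.37, SE 0.65). Flt4, the VEGF receptor 3 of lymphatic vessels and sprouting capillaries, had 25.97, 12.6 and 39.9 against 9.99, 12.1 and 11.5 CPM (1.23, SE 0.49). Cdh5, the endothelial cadherin, had 128, 195 and 104 against 52.2, 96.1 and 86.1 CPM (0.86, SE 0.46), with 74.2, 117 and 40.5 CPM in the middle tumours, where tumour 4 lay among the highest-scoring. The margins were narrow for several members, from 26.8, 33.1 and 30.9 against 21.8, 26.7 and 26.1 CPM in Egfl7 to the wider ones of Vwf, and Pecam1 (97.9, 147 and 84.2 against 47.1, 104 and 75.7 CPM) and Kdr (43.3, 49.2 and 46.9 against 33.9, 51.9 and 74.5 CPM) overlapped. The others without overlap were Tie1, Emcn, Esam, Erg and Plvap, of vessel walls and endothelial transcription. Lyve1, of lymphatic vessels and some macrophages, had 2.604, 0.278 and 1.64 against 2.83, 23.7 and 4.29 CPM. Summed over the list, the 3 highest-scoring tumours had 746 to 1150.3 CPM and the lowest 381 to 717, against 1672 to 2119 in epithelium. The list's median was 0.34 without tumour 27 and 0.35 without tumour 24.

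Fibroblast and matrix genes were lower in the highest-scoring tumours by their median (-1.11, 23 of 24 negative), but this rested on tumour 21. Tumour 21 was the highest of 9 in 20 of the 24 genes (83.3%), and without it the median was 0.45. Col3a1, a fibrillar collagen, had 588, 452 and 1507 CPM at the upper end and 869, 16976 and 1505 CPM at the lower, Col1a2, another, 425, 110.1 and 1508 against 556, 6522 and 546 CPM, and Dpt, the matrix protein dermatopontin, 3.68, 3.79 and 0.774 against 5.23, 249 and 7.45 CPM. Tumours 24 and 20 were in the range of the highest-scoring tumours for Col3a1. The 2 genes lower without overlap, 8.33% of the list against 5.1% of all genes, were Dpt and Fbln1, a secreted glycoprotein (6.97, 18.6 and 23.7 against 90.7, 36.7 and 134 CPM). Summed over the list, tumour 21 held 44174 CPM, and the 3 highest-scoring tumours 3938 to 11608. The part of fibroblasts in the lower keratin levels of tumour 21 was not tested.

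Cartilage genes were mixed beyond Col2a1. Of 17 tested, 7 were positive and 10 negative (median -0.61, -1.54 without tumour 27 and 0.00 without tumour 24), and Comp, a matrix protein of cartilage and tendon, was the other gene lower without overlap (2.31, 0.139 and 1.89 against 30.2, 4.68 and 16.5 CPM). Col2a1 and Comp were 11.8% of the list, against 5.1% of all genes. Middle tumour 17 had 539 CPM of Comp, more than any tumour of the lower end. Col9a1, a collagen that coats the fibrils of Col2a1, had 184, 80.5 and 0.433 against 697, 36.4 and 119 CPM, and Acan, the main cartilage proteoglycan, 18.03, 1.95 and 29.6 against 1.02, 22.9 and 0.422 CPM, so that both overlapped. Col11a1, a minor fibrillar collagen of cartilage and tumour stroma and the most abundant member with Col9a1, had 71.6, 254 and 27.4 against 140.1, 253 and 1004 CPM.

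Adipocyte genes were lower by their median in the highest-scoring tumours, with 14 of 16 negative and a median of -1.40 (-0.45 without tumour 20). Lpl, lipoprotein lipase, had 8.63, 7.16 and 12.7 against 29.3, 23.01 and 33.7 CPM (log2 fold change -1.59, SE 0.39), and Cidec, a lipid droplet protein, 0.456, 0.104 and 0.0309 against 0.654, 0.476 and 4.18 CPM, both without overlap (12.5% of the list, against 5.1% of all genes). Pnpla2, a lipase found in many tissues, was higher without overlap (53.7, 34.7 and 41.9 against 28.99, 21.03 and 22.9 CPM, 6.25% of the list against 4.45% of all genes). Fabp4, a fatty acid carrier and the most abundant with Pnpla2, overlapped (12.4, 11.02 and 16.2 against 22.4, 12.1 and 52.7 CPM). The middle tumours were above both ends over the list (257 to 336 CPM summed, against 87.95 to 115 and 87.6 to 198), with Adipoq, the fat hormone adiponectin, at 7.02, 13.7 and 7.79 CPM against 0.586, 0.0695 and 0 and 0.327, 0.516 and 3.09 CPM.

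Immune genes were highest in tumour 21 for several cell types. Tumour 21 was the highest of 9 in 11 of 19 B and plasma cell genes and in 10 of 22 macrophage genes. The median log2 fold changes of T and NK cells (-0.49), B and plasma cells (-1.68) and dendritic cells (-0.13) were 1.18, 0.35 and 1.61 without it, and that of B and plasma cells was -0.70 with the outside-gene share as a covariate. Macrophage genes had a median of 0.00 (1.00 without tumour 21), with Csf1r, the receptor of their growth factor, at 165, 112 and 278 against 66.2, 416 and 74.5 CPM. Cd163, a scavenger receptor of resident macrophages, was the 1 macrophage gene without overlap (6.74, 5.25 and 8.26 against 15.1, 107 and 18.3 CPM, log2 fold change -2.80, SE 0.74), 4.55% of the list against 5.1% of all genes. Cd209a, a lectin of dendritic cells (0.0651, 0 and 0 against 0.509, 3.37 and 0.597 CPM), and the mast cell proteases Cpa3 (0.0976, 0.104 and 0.0619 against 0.254, 2.18 and 1.05 CPM) and Cma1 (0.163, 0.0348 and 0.155 against 0.182, 2.66 and 1.44 CPM) were lower without overlap at very low counts. They made up 7.14% of 14 dendritic cell genes and 28.6% of 7 mast cell genes, against 5.1% of all genes. Among T and NK cell genes Lck, a kinase of the T cell receptor, was lower without overlap (1.53, 2.92 and 0.433 against 3.67, 5.36 and 2.99 CPM, 4.55% of 22), and Cd4 overlapped (1.302, 17.4 and 1.08 against 1.71, 4.25 and 7.38 CPM). Of 19 B and plasma cell genes Tnfrsf13c, the BAFF receptor, was lower (0.2604, 0.452 and 0.155 against 1.31, 3.73 and 0.633 CPM) and Sdc1, syndecan 1 of plasma cells and of epithelia, higher (264, 421 and 849.9 against 59.7, 128 and 136 CPM). Each was 5.26% of the list, against 5.1% and 4.45% of all genes. The antibody light chain gene Igkc overlapped (19.8, 49.3 and 2.91 against 6.39, 145 and 45.5 CPM). In Cd209a every upper value lay under the CPM of 3 counts, and in Cpa3 the upper values lay at or under it.

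Neutrophil genes had the largest positive list median, 2.29, with all 14 tested positive, yet 0 of them without overlap. Tumours 5 and 1 were high and tumour 27 was not: Cxcr2, the chemokine receptor of neutrophils, had 17.4, 2.85 and 18.2 against 1.85, 3.25 and 2.32 CPM, and S100a9, a neutrophil calcium-binding protein, 46.7, 2.75 and 24.4 against 1.78, 5.198 and 4.604 CPM. Middle tumour 4 was as high or higher, with 115 CPM of S100a9. The median was 1.36 without tumour 5 and 1.19 with the outside-gene share as a covariate. Mmp9, a matrix protease, was high in tumour 1 (20.1, 1.84 and 345 against 5.45, 37.1 and 1.58 CPM). Hdc, the histamine-making enzyme and, after Kit, the most abundant gene of the mast cell list, was also high in tumours 5 and 1 (12.04, 1.29 and 7.74 against 0.363, 2.22 and 0.949 CPM), against the median of the 7 mast cell genes (-2.21). Of abundant macrophage and dendritic cell genes, Apoe, apolipoprotein E, had 2032, 3274 and 1360.01 against 737, 2051 and 592 CPM and Lyz2, lysozyme, 463, 126 and 510.03 against 252, 1162 and 141 CPM. The MHC class II genes Cd74 and H2-Ab1 had 207, 721 and 658 against 70.3, 1351 and 166 CPM and 78.998, 297 and 240.1 against 32.3, 578 and 77.6 CPM, and all 4 overlapped.

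Interferon and antigen presentation genes were similar, with 24 of 25 positive and a median of 1.55, and 1 gene without overlap (4.00% of the list, near the background of 4.45%). That gene was Irf1, a transcription factor of the interferon response (77.8, 99.4 and 71.1 against 35.7, 69.5 and 32.5 CPM). B2m, the light chain of MHC class I, had 3585, 2914 and 417 CPM at the upper and 324, 795 and 346 CPM at the lower end, and H2-K1, a class I heavy chain with near-identical relatives whose reads the counting could split, 1256, 1614 and 107 against 124, 583 and 152 CPM. Tumours 5 and 27 were thus above every tumour of the lower end, and tumour 1 was among or below them. Usp18, an interferon-induced protease, had 75.1, 40.4 and 6.47 against 2.18, 7.97 and 2.74 CPM.

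**Figure D4:**
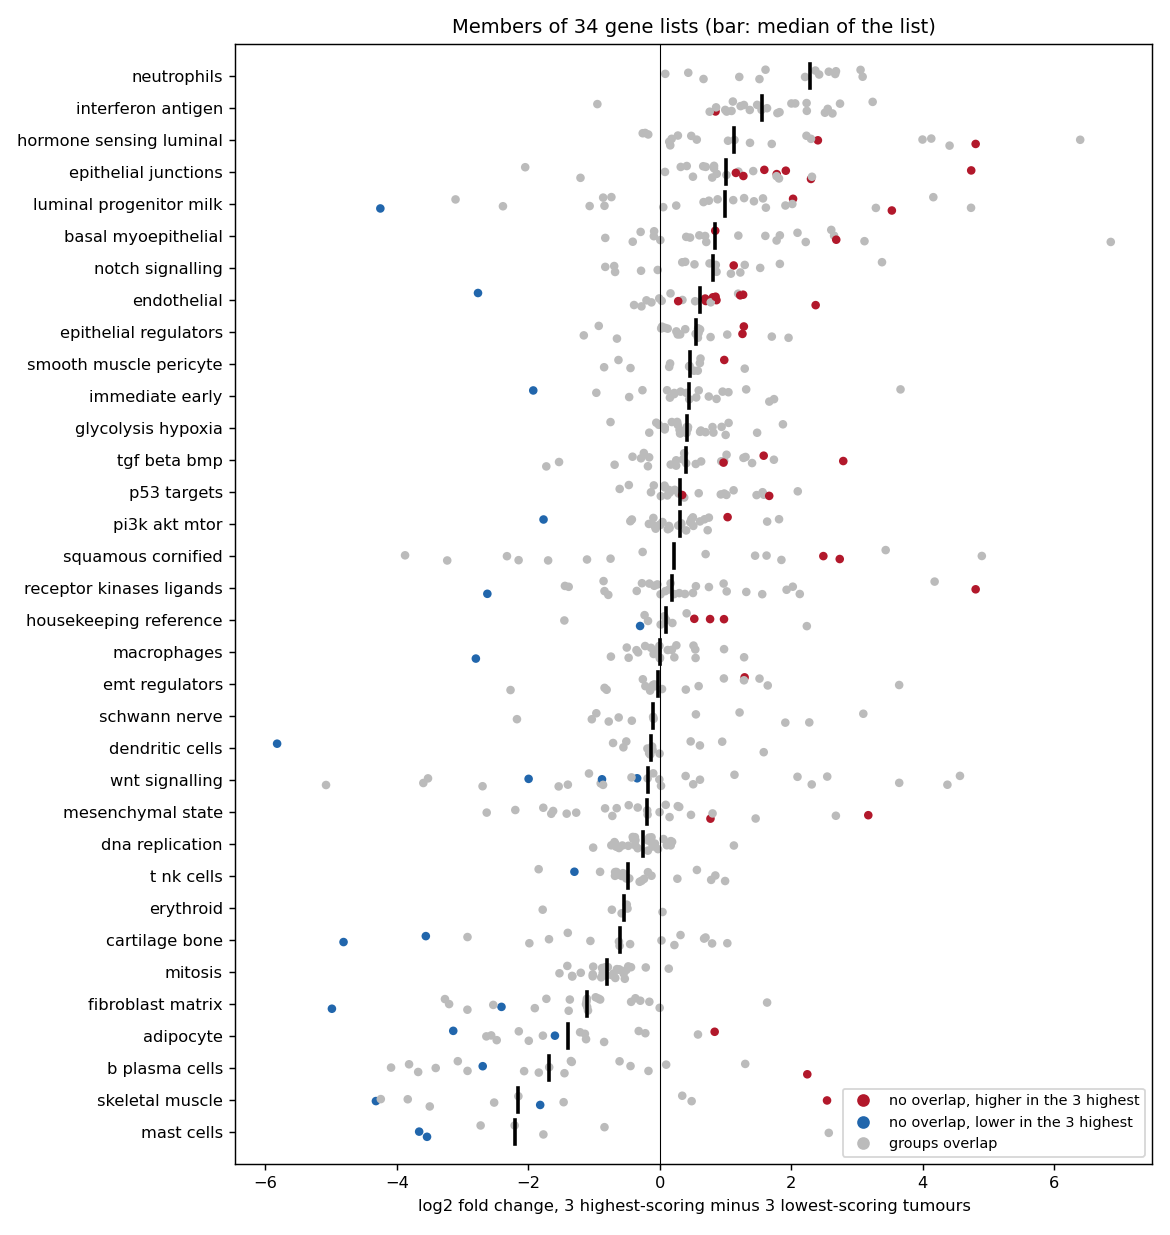
Log2 fold change of each tested member of 34 gene lists between the 3 highest-scoring and the 3 lowest-scoring tumours, with the list median as a black bar. Red and blue points are members without overlap between the tumours. Endothelial and junction genes hold 10 and 7 red points, while neutrophil and interferon genes have the largest medians, 2.29 and 1.55, with 0 and 1.

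Genes of cell division were lower in the highest-scoring tumours by their median but not by tumour. Of 28 mitosis genes 27 were negative, with a median of -0.80, and 0 were without overlap. Mki67, the proliferation marker, had 399, 385 and 315 CPM against 1721, 194 and 998 CPM, and Bub1b, a spindle checkpoint kinase, 72.9, 43.4 and 67.4 against 290.5, 36.2 and 135 CPM. Tumours 24 and 20 were the highest of the 9 tumours in 26 of the 28 genes, 21 and 5, while tumour 21 was the lowest of 9 in 20. The median was -0.30 without tumour 24 and -1.26 without tumour 21. In the fit without tumour 21, 25 of the 28 were lower without overlap, against 2942 of all 19566 genes tested there. The mitosis genes of the 3 highest-scoring tumours were close to each other and to the middle tumours, with mean log2 CPM of 5.69, 5.25 and 5.74 against 5.53, 5.45 and 5.46, and all tumours were above epithelium (2.67, 2.85 and 3.21).

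**Figure D5:**
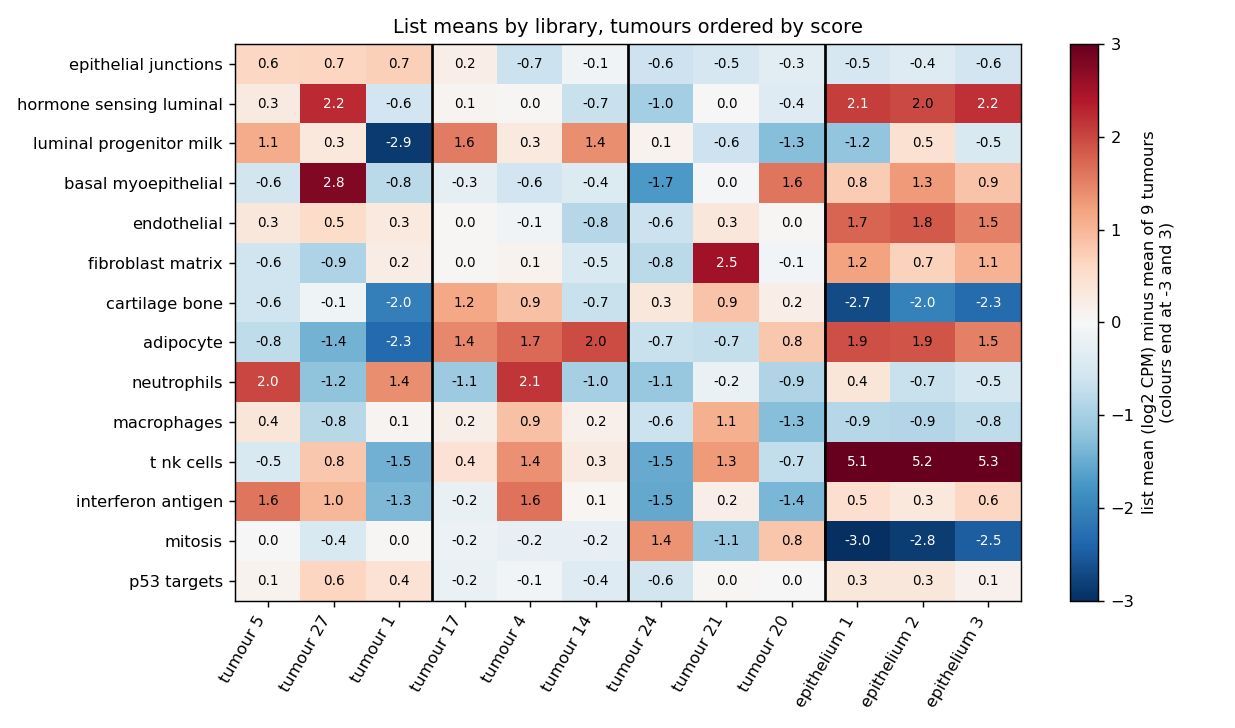
Mean log2 CPM of 14 gene lists in each library minus the mean of the 9 tumours, with tumours in the order of the score and vertical lines between the 3 highest, the 3 middle, the 3 lowest and the epithelium. Colours end at -3 and 3, and the T and NK cell genes of epithelium are beyond. Junction genes are above the mean in all 3 highest-scoring and below it in all 3 lowest-scoring tumours, while most other rows are set by 1 or 2 tumours.

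DNA replication genes, 28 tested, had a median of -0.26 with 22 negative and 0 without overlap. The median was 0.076 without tumour 24, 0.11 with 2 tumours against 2, and -0.68 without tumour 21. In the fit without tumour 21, 15 of the 28 were lower without overlap, against 2942 of all 19566 genes tested there. Rrm1, a ribonucleotide reductase subunit, had 136, 117 and 105 against 286, 57.6 and 155 CPM and Pcna, the replication clamp, 109, 82.03 and 105 against 149, 46.98 and 115 CPM, with Top2a of the mitosis list, a topoisomerase, at 297, 221 and 306 against 640.2, 199 and 275 CPM. Tumour 21 was again the lowest of the 6 in Rrm1, Pcna and Top2a, and tumour 24 the highest. Glycolysis and hypoxia genes, 26 tested, were 22 positive (median 0.41) with 0 without overlap, and the glycolytic enzymes Pkm (4219, 1816 and 4121 against 2312, 995 and 1602 CPM) and Aldoa (1464, 2397 and 656 against 1084, 387 and 879 CPM) overlapped.

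Trp53 RNA overlapped between the ends, with 41.4, 42.5 and 70.2 CPM in the highest-scoring and 47.6, 27.5 and 77.2 CPM in the lowest-scoring tumours and 43.8, 41.5 and 45.6 CPM in epithelium. Of 24 genes of the p53 list 20 were positive (median 0.32, and 0.12 without tumour 27), and 2 were higher without overlap (8.33%, against 4.45% of all genes). They were Tnfrsf10b, a death receptor (29.9, 19.1 and 71.9 against 10.6, 16.7 and 10.7 CPM, log2 fold change 1.67, SE 0.58), and Ddb2, a DNA damage sensor, by a narrow margin (23.4, 19.2 and 22.5 against 18.5, 16.7 and 16.2 CPM). Cdkn1a, the cell cycle inhibitor p21, had 18.3, 29.8 and 53.5 against 4.796, 24.7 and 4.81 CPM (1.57, SE 0.73), with tumour 21 above tumour 5. Mdm2, the ubiquitin ligase of p53, had 59.3, 67.1 and 52.5 against 39.1, 42.97 and 64.4 CPM, and Cdkn2a, the gene of p16 and p19Arf, 62.3, 16.8 and 111 against 41.2, 19.5 and 38.8 CPM, both overlapping. The most abundant of the list, the kinase Plk2 (81.9, 492 and 143 against 49.01, 44.4 and 146 CPM) and the membrane protein Perp (81.2, 295 and 203 against 26.01, 35.2 and 225 CPM), were high in tumour 27 and overlapped.

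Among signalling genes, 1 to 3 members of each list did not overlap between the ends. Their shares stand against 4.45% of all genes higher and 5.1% lower without overlap. Of 28 genes of PI3 kinase, Akt and mTOR, Sgk1, a kinase related to Akt, was higher (129, 125 and 81.1 against 63.9, 65.3 and 34.5 CPM) and Irs2, an adaptor of the insulin receptor, lower (17.3, 25.3 and 30.5 against 45.9, 106 and 97.3 CPM, log2 fold change -1.77, SE 0.56), each 3.57% of the list. All 3 middle tumours (97.6, 153 and 391 CPM) were above the highest-scoring in Irs2 as well. Pik3r1, the p85 regulatory subunit, had 212, 1479 and 129 against 121, 217 and 179 CPM, and its log2 fold change of 1.82 was -0.019 without tumour 27. Of 30 receptor kinases and ligands (median 0.19, -0.20 without tumour 1 and 0.81 without tumour 21), Areg was higher and Igf1, insulin-like growth factor 1, lower (6.998, 3.34 and 8.42 against 12.5, 93.4 and 9.77 CPM), each 3.33%. Akt1, the kinase, had 239, 223 and 306 against 238, 170.2 and 204 CPM, and Fgfr1, an FGF receptor, 100.3, 279 and 569.6 against 186, 301 and 181 CPM, and both overlapped. Met, the HGF receptor, was very high in 1 tumour of each end (14448, 114 and 235 against 4619.6, 346 and 50.2 CPM).

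The BMP target genes Id1 (78.3, 6.88 and 19.6 against 2.65, 6.82 and 5.62 CPM, log2 fold change 2.79, SE 0.94) and Id3 (20.7, 36.4 and 35.2 against 4.18, 17.4 and 9.21 CPM, 1.58, SE 0.58), which encode inhibitors of helix-loop-helix factors, and Inhbb, an activin subunit (223, 213 and 124 against 106, 79.9 and 99.6 CPM), were the 3 of 27 TGF-beta and BMP genes higher without overlap (11.1%, against 4.45% of all genes), and the list's median of 0.40 was 1.15 without tumour 21 and 0.86 with the outside-gene share as a covariate. Of 27 Wnt pathway genes 3 were lower without overlap (11.1%, against 5.1%) and 0 higher, while the median of -0.18 was 0.66 without tumour 21 and 0.23 with that covariate. These were the receptor Fzd7 (143, 128 and 45.2 against 148, 179 and 254 CPM), the coreceptor Lrp6 (306, 297 and 321 against 376, 388 and 406 CPM) and Lef1, the nuclear partner of beta-catenin (0.749, 0.72996 and 0.867 against 3.89, 1.98 and 3.51 CPM). Fzd7 was nearly equal in tumours 5 and 24, and so was Id1 in tumours 27 and 21. The abundant members Skil, a SMAD corepressor (309, 161 and 235 against 409, 284 and 105 CPM), Tgfbr2, a TGF-beta receptor (209.8, 259.8 and 247 against 103, 669 and 101 CPM), and Lrp5, a Wnt coreceptor (219, 81.9 and 314 against 322, 136 and 159 CPM), overlapped. Wnt7b, a ligand, was high in tumours 5 and 1 (275, 20.9 and 338 against 2.33, 44.5 and 3.83 CPM) and overlapped through tumours 27 and 21. Nr4a1, an immediate early nuclear receptor, was lower without overlap (25.1, 12.8 and 17.1 against 116, 28.9 and 63.96 CPM, 4.76% of 21), while the list's median was 0.45 and its abundant members Klf6 (189, 121 and 677 against 67.6, 166 and 76.9 CPM) and Ier3 (150.2, 29.4 and 139 against 170.5, 32.2 and 53.2 CPM) overlapped. Of 18 Notch pathway genes (median 0.81) the receptor gene Notch4, of endothelium, was higher without overlap (24.998, 36.05 and 60.6 against 18.3, 16.1 and 21.3 CPM, 5.56% against 4.45% of all genes). Notch1 (259.6, 245 and 379 against 336, 143 and 196 CPM) and Notch2 (177, 96.2 and 365 against 133, 291 and 79.5 CPM) overlapped. Nerve, red cell and skeletal muscle genes had medians of -0.10, -0.54 and -2.15. The nerve median was 0.20 without tumour 20 and 0.42 without tumour 21, the red cell median 0.93 without tumour 20, and the muscle median -0.36 without tumour 24, which was the highest of 9 tumours in 8 of 11 muscle genes. Sox10, a factor of neural crest and of mammary progenitors, had 264, 94.1 and 1.33 against 353, 139 and 243 CPM and Erbb3, a receptor of the EGF receptor family, 87.3, 153 and 175 against 115, 76.5 and 91.5 CPM, and Sox10 was lowest in tumour 1. The globin genes Hbb-bs (29.5, 83.04 and 24.1 against 21.4, 19.1 and 151 CPM) and Hba-a1 (8.17, 23.7 and 4.67 against 4.65, 5.87 and 41.2 CPM), which have near-identical copies, overlapped. Of 11 muscle genes the troponin Tnni2 was higher (5.79, 14.6 and 14.5 against 3.597, 2.06 and 0.316 CPM) and the muscle genes Ckm and Tnnt1 lower without overlap. These are 9.09% and 18.2% of the list, against 4.45% and 5.1% of all genes. The actin Acta1 had 0.325, 1.36 and 0.124 against 18.9, 0.516 and 14.9 CPM.

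Of 13 reference genes 3 were higher and 1 lower without overlap (23.1% and 7.69%, against 4.45% and 5.1% of all genes tested). On the higher side the junction list had 28% and the endothelial list 45.5%. The median log2 fold change of the reference genes was 0.10. Actb, cytoplasmic actin, had 3599.9, 4010.4 and 5232 against 4118, 3403 and 4720.4 CPM and overlapped. Of the higher genes, Ywhaz, a 14-3-3 protein, had 629, 479 and 537 against 419.6, 326 and 397 CPM, and Ppia, cyclophilin A, 1079.6, 979.7 and 1231 against 739.8, 611 and 583 CPM. Tumour 21 had the lowest mean log2 CPM of the list (7.31 against 7.96, 7.98 and 7.96 at the upper end), and Tbp, the TATA-binding protein and the 1 lower gene, had 37.2, 31.8 and 35.8 against 49.2, 40.3 and 39.4 CPM.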

How the data were processed

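Total RNA of 9 tumours and 3 epithelium preparations was extracted with RNeasy kits and made into TruSeq stranded libraries, per the labels. The deposited files hold raw counts per gene, with GRCm38 as the build, HTSeq 0.11.0 as the counter, TopHat2 2.1.1 as the aligner and FastQC 0.11.8 for read checks, per the submitters' processing notes. Annotation and strand setting: not given in the sources used here. From each library 5 summary counts were kept out of library sizes.

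Genes were filtered with filterByExpr (minimum count 10, total 15, group size 3), scaled by the trimmed mean of M values over the 9 tumours and tested with edgeR 4.0.16 (quasi-likelihood, robust) in R 4.3.3, with the 9 tumours in 3 levels and 6 residual degrees of freedom. DESeq2 1.42.0 and limma 3.58.1 were alternatives. The 10 genes of the score were left out. Since tumours were selected on a measured score, an adjusted p describes how a gene follows that score. No 2 libraries were copies.

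The members, the 34 lists (690 genes tested, 48 under the filter, 3 not matched) and the tests were chosen with earlier results of these data known. Named genes were to be the 8 largest called differences in each direction; since none was called, they were filled by the smallest unadjusted p among genes without overlap, with at least 10 CPM in the higher group and no predicted, clone-named, segment, mitochondrial or small nuclear symbol. The 2 most abundant members of each list and Trp53, Cdkn1a, Mdm2, Cdkn2a, Met and Rn7sk were named by rule, and other genes after their values were seen. Values of 3 list members are not reported here. Positions are from GENCODE M21, in which 19907 of the 20004 genes matched by symbol. Figures used Python 3.11.15 and matplotlib 3.10.9.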

Additional observations from a re-analysis of the deposited data

Results flagged for a closer look

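Dixon's test at the 95% level was run on 97 values over the 9 tumours. These were 62 of the genes named in the text, 34 list means and the score. Other named genes, Met, Fn1 and Mmp9 among them, were not put to it. In 28 of the 97 values 1 tumour was set far from the rest. Chance gives about 1 in 20 only for normally distributed values chosen beforehand. Many of these genes were chosen by their values and tested as CPM, so the 28 cannot be set against that rate. Each of the 28 is given with its tumour and the next value.

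Tumour 1 was highest in Acsbg1 (333 CPM, next 44.2), Msln (757, next 26.6), Pitpnm3 (76.3, next 33.7), Ocln (87.4, next 42.2), Sdc1 (849.9, next 421) and Tnfrsf10b (71.9, next 29.9).

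Tumour 27 was highest in Areg (65.4 CPM, next 22.4), Vwf (247, next 104), Pik3r1 (1479, next 385) and the mean of hormone-sensing genes (5.30 log2 CPM, next 3.35). Tumour 5 was highest in Dsg3 (70.1 CPM, next 14.5) and Id1 (78.3, next 38.4).

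Tumour 21 was highest in Lyve1 (23.7 CPM, next 4.29), Dpt (249, next 9.65), Col3a1 (16976, next 1771), Cpa3 (2.18, next 1.05), Cd163 (107, next 18.3), Cd209a (3.37, next 1.12), Igf1 (93.4, next 34.9) and the mean of fibroblast genes (9.14 log2 CPM, next 6.85). It was lowest in the mean of reference genes (7.31 log2 CPM, next 7.72).

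Adamts20 was highest in tumour 20 (39.7 CPM, next 11.8) and Tcf7l1 in tumour 24 (23.3, next 12.6). In the middle tumours, tumour 17 was highest in Satb1 (38.2 CPM, next 15.8), Lalba (652, next 48.5), Cxcl14 (125, next 77.1) and Comp (539, next 47.2), and tumour 14 in Irs2 (391, next 153).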

How the results depend on the processing

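The same 6 tumours were chosen under every rescaling, with a score of Krt8, Krt18, Epcam and Cdh1 only, and without tumour 4. Of 21 alternatives 20 called no gene, and DESeq2 called 95 higher and 113 lower, with no adjusted p for 535 genes. It called 24 of the 62 genes followed here, among them 15 of the 16 chosen by p among genes without overlap (Msln had no adjusted p). The smallest adjusted p of the 62 genes in any other fit was 0.143. The cause of the gap between tools was not tested. Genes higher without overlap numbered 572 under upper quartile scaling, which moved the median of all genes to -0.16, and 1732 were lower without a filter and 636 with at least 10 counts in all tumours. With 2 tumours against 2 they were 3112 and 3121, with 4 against 4 they were 236 and 271, and leaving out 1 of the 6 tumours gave 1437 to 2797 higher and 1587 to 2942 lower, since fewer tumours overlap less often. Of the 62 genes 59 kept their direction in all alternatives. Another fit put the score itself in place of the 3 levels, with its slope scaled to the 1.84 between the mean scores of the ends. There Lalba and Comp turned to 1.23 and 1.63. With 4 tumours against 4 they turned to 2.82 and 3.10, through tumour 17. Pik3r1 ran from -0.019 without tumour 27 to 2.29 without tumour 1. Of the 34 list medians 16 kept their sign throughout. Mast cells turned to 0.81 under the strict filter and skeletal muscle to 0.012 with 2 tumours against 2. With 1 tumour left out, basal genes ran from -1.47 (without tumour 27) to 2.31, T and NK cells from -1.30 to 1.18 (without tumour 21), B and plasma cells from -2.66 to 0.35 (without tumour 21) and dendritic cells from -0.63 to 1.61 (without tumour 21). No paired analysis was possible because the tumours compared carry distinct numbers and share only the number 1 with the epithelium. Depth limits Cd209a, Cpa3, Cma1 and Adamts20, whose upper values rest on few counts.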
